A study of Mus musculus with 6 samples.

Results

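YTHDC1 peaks on genes of the GENCODE class misc_RNA are described here. This class gathers small structured noncoding RNAs outside the classes for microRNAs and for small nuclear and nucleolar RNAs, and it holds 7SK RNA, the RNA of the signal recognition particle (SRP), the RNAs of RNase P and RNase MRP, Y RNAs and vault RNA, with their many sequence copies. A peak was a member when it overlapped an annotated misc_RNA gene of mouse genome build mm9 by at least 1 nt on the strand opposite to that of its reads, since LACE-seq reads are complementary to the RNA. The rule took 610 of 178779 peaks from 6 libraries. They lay on 78 of 487 annotated misc_RNA genes.

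LACE-seq crosslinks a protein to its RNA with UV light, pulls the protein down with an antibody and reads where reverse transcription stops on the RNA. The antibody was against YTHDC1 (Abcam, ab122340) in every library, and all cells were labelled WT. ASC-48h are mouse muscle satellite cells sorted from muscle and cultured for 48 hr, with 2 biological replicates (B1, B2) of 2 technical replicates each (T1, T2). C2C12 is an established mouse myoblast line, with 2 replicates, each from 10 times as many cells, that the labels number as biological while the text of the study calls them technical. Neither input RNA nor a library without antibody was analysed here, so an abundant RNA and a strongly bound RNA cannot be told apart, and, as these are bulk samples, neither can fewer cells of a type and less RNA per cell. With 2 replicates per cell type the p-values measure only the spread between these samples, and no exact permutation test over replicates can go below p = 0.333.

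The libraries differ in ways that touch all counts below. ASC libraries held 7925 to 19448 peaks and C2C12 libraries 60540 and 71992. ASC B2 T2 stood apart with the most peaks of the 4 ASC libraries and a lowest listed value of 4 reads per 20-nt bin, against 5 in the other ASC libraries and 6 in C2C12. Values of genes are therefore given for each library, and where leaving it out changed whether the cell types overlapped, this is said. Of the muscle markers checked, Pax7 had peaks in 4 of 4 ASC libraries and 1 of 2 C2C12 libraries. Myod1 had 0, 2, 1 and 6 peaks in ASC (B1 T1, B1 T2, B2 T1, B2 T2) and 5 and 3 in C2C12. Myf5 had 0, 0, 1 and 0 in ASC and 2 and 2 in C2C12. Des had 18 and 17 peaks in C2C12 and 0 to 4 in ASC, and Vcam1 and Cdh15 had peaks only in C2C12. Of the markers of other cells, Ptprc had 0 peaks in each library and Pecam1 had 1 in each, while Pdgfra had 0 in ASC and 2 and 4 in C2C12, and Acta2 had 0 in ASC and 7 and 8 in C2C12.

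YTHDC1 is a nuclear reader of N6-methyladenosine (m6A) on RNA. Most RNAs of this class are made by RNA polymerase III and act inside stable protein-RNA particles. 7SK holds the elongation factor P-TEFb inactive in the nucleus, SRP RNA is the scaffold of the particle that brings secreted proteins to the endoplasmic reticulum, RNase P trims the leader of tRNAs, RNase MRP acts in rRNA maturation, Y RNAs bind the Ro60 protein and vault RNA belongs to vault particles. 7SK and SRP RNA have left many copies in mammalian genomes, most of them thought to be silent.

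Of the 12 bins on functional genes that carried peaks in all 6 libraries, 7 are shown first, because the results below turn on where peaks lay in these RNAs. Those left out are the 3 of Rn7s2, whose sequence is that of Rn7s1, and the second of Rpph1 and of Rmrp. Each is printed 5′ to 3′ on the RNA strand with T for U, from mm9, with the 20-nt bin of the peak in capitals and 5 bases on each side. Positions count from the first annotated base of the gene.
Rn7sk, nt 21 to 40, chr9:78023396-78023425, minus strand: ctggcTGCGACATCTGTCACCCCATtgatc
Rn7sk, nt 101 to 120, chr9:78023316-78023345, minus strand: ccctcACCGCTCCATGTGCGTCCCTcccga
Rn7s1, 5′ end, chr12:70260276-70260305, plus strand: gcgctCGCCGGGCGCGGTGGCGCACgcctg
Rn7s1, nt 120 to 139, chr12:70260396-70260425, plus strand: actaaGTTCGGCATCAATATGGTGAcctcc
Rpph1, nt 23 to 42, chr14:51427396-51427425, minus strand: agcggGGCCACGTGCTGAGTGCGTGtcact
Rmrp, nt 11 to 30, chr4:43505896-43505925, minus strand: ctctgAAGGCCTGTTTCCTAGGCTAcatac
Rny3, nt 59 to 78, chr6:47731676-47731705, plus strand: atttcTTTGTTCCTTCTCCGCTCCCactgc
The bins of Rpph1, Rmrp and Rny3 occurred once in the genome. Those of Rn7sk occurred 11 and 6 times and those of Rn7s1 11 and 5 times, counting either strand.

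The 7SK family and genes related to SRP RNA held most of the peaks. Over all libraries, 307 peaks (50.3%) lay on 49 of 331 genes of the 7SK family and 192 (31.5%) on 15 of 67 genes related to SRP RNA. RNase P genes held 50 peaks on 4 of 20 genes, Y RNA genes 23 on 6 of 24, and RNase MRP 21 on 1 of 2. Vault RNA held 13 peaks on 1 of 2 genes. The 2 telomerase RNA genes had no peak, nor did 3 genes of other symbols, and 2 of 36 genes that could be put in no family held the remaining 4 peaks. A count of 0 peaks here covers only peaks past the caller's threshold. Of the 487 genes, 9 were identified as the functional genes through their protein-coding neighbours: Rn7sk, Rn7s1, Rn7s2, Rmrp, Rpph1, Rny1, Rny3, Vaultrc5 and the telomerase RNA gene Terc. All of them but Terc had peaks in all 6 libraries, and these 8 genes held 149 of the 610 peaks and 31.5% of the reads in misc_RNA peaks.

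The share of the 7SK family, copies included, in the reads of misc_RNA peaks was lower in ASC than in C2C12. It was 38.96% and 43.5% in ASC B1 T1 and T2, 44.2% and 51.2% in B2 T1 and T2, and 63.0% and 63.5% in the C2C12 replicates. The cell types did not overlap, with means of 44.5 ± 4.56% against 63.3 ± 0.361% (SD, n = 2 each; exact permutation p = 0.333, two-sided, the smallest possible). The gene Rn7sk alone overlapped between the cell types, with mean shares of 6.63% in ASC and 6.26% in C2C12. Peaks lay on 22 to 30 genes of the 7SK family in the ASC libraries and on 44 and 41 in C2C12. These counts are not corrected for the longer C2C12 lists. Over all genes with a peak, 47.0% had peaks in C2C12 alone, against 25.6% of misc_RNA genes with a peak. In share of reads, genes related to SRP RNA showed the opposite order to the 7SK family. They held 33.7% to 43.9% in the ASC libraries and 23.3% and 22.1% in C2C12. RNase MRP was close to constant within each cell type, at 6.15% to 6.52% in ASC and 4.46% in both C2C12 replicates. The remaining families did not overlap either. RNase P held 5.36% to 10.7% in ASC and 3.74% and 4.30% in C2C12. Y RNAs held 1.69% to 2.65% against 2.67% and 2.87%, and vault RNA 0.440% to 1.41% against 2.46% and 1.81%. Lack of overlap was thus not particular to 1 family. The shares of one library sum to 100%, so they do not move independently. Without ASC B2 T2, the ASC shares were at most 44.2% for 7SK and at least 35.5% for SRP RNA, and those of RNase MRP were 6.15% to 6.31%.

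**Figure D1:**
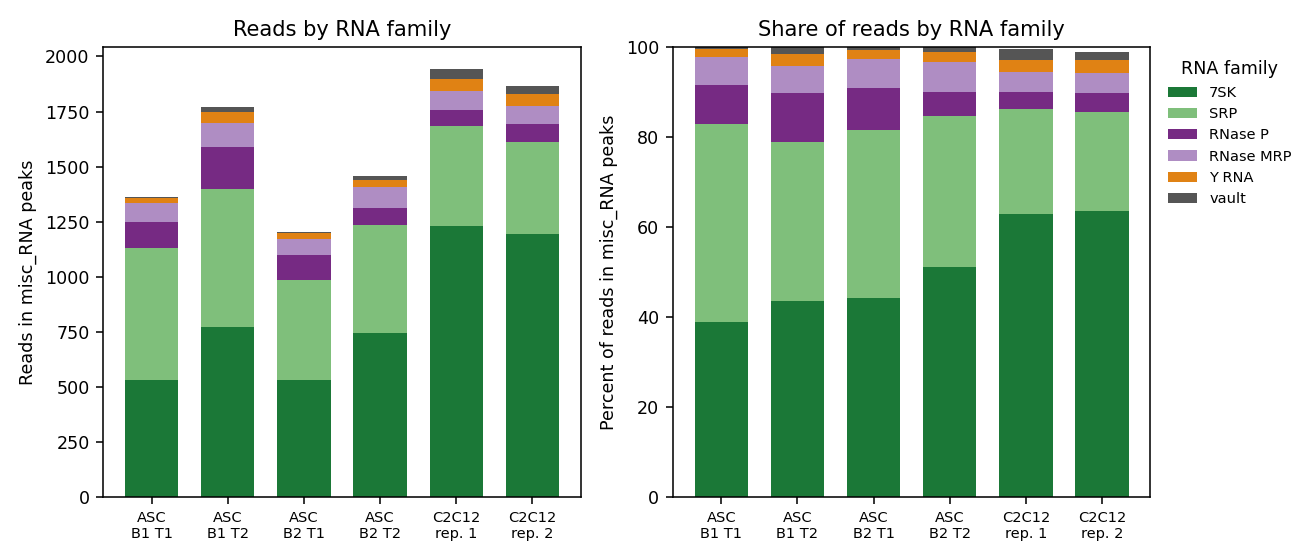
Reads in misc_RNA peaks by RNA family in the 6 libraries (left, number of reads, right, percent of the reads in misc_RNA peaks). The 7SK family with its copies (dark green) made up 38.96% to 51.2% of these reads in the 4 ASC libraries and 63.0% and 63.5% in the C2C12 replicates.

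Misc_RNA genes took a larger part of the ASC peak lists, yet the number of such peaks was lower in ASC. They were 0.961%, 0.939%, 0.984% and 0.504% of the peaks of ASC B1 (T1, T2) and B2 (T1, T2), and 0.208% and 0.179% of those of C2C12. The value of B2 T2 lay far below the other ASC libraries and still above C2C12. With technical replicates averaged, the means were 0.847 ± 0.146% in ASC and 0.194 ± 0.0205% in C2C12, 4.37 times as high in ASC (SD, n = 2 each; exact permutation p = 0.333). The size of this difference changed with the setting. When each library kept only peaks with 6 or more reads per bin, the means were 1.53% and 0.194%. With the peaks of technical replicates merged they were 0.571% and 0.194%. Without B2 T2 the ASC mean was 0.967%. Counted as reads, the misc_RNA share was 1.98 ± 0.425% in ASC and 0.341 ± 0.0446% in C2C12, and without B2 T2 the ASC mean was 2.16%. The peaks themselves numbered 78, 101, 78 and 98 in ASC and 126 and 129 in C2C12. The C2C12 lists were longer and came from more cells, and cell type, cell number and depth cannot be told apart.

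Misc_RNA peaks were often wide, with neighbouring bins joined. Peaks of over 1 bin made up 26.7% to 39.7% of them in ASC and 22.2% and 19.4% in C2C12, against 4.49% to 6.58% of all peaks in the same libraries. The widest covered 240 nt. A wide peak carries the mean reads per bin over its length, so its value is not that of a single bin. Values given below for a bin are the listed values of the peaks that cover it, wide peaks included.

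7SK RNA was covered along most of its length. The gene Rn7sk (ENSMUSG00000065037, chr9:78023110-78023440, minus strand, 331 nt, in no other gene) held 85 and 107 reads in peaks in ASC B1 T1 and T2, 79 and 112 in B2 T1 and T2, and 128 and 112 in C2C12. In reads the cell types met only at the 112 of ASC B2 T2 and C2C12 replicate 2, and without ASC B2 T2 all ASC values lay below those of C2C12. As a share of the reads in misc_RNA peaks they overlapped, at 6.04% to 7.69% in ASC (6.04% to 6.56% without B2 T2) and 6.56% and 5.95% in C2C12. Peaks covered 180 to 260 nt of it, depending on the library. Its nt 21 to 40, printed above, held 11.2 ± 1.99 reads per bin, and nt 101 to 120 held 10.9 ± 4.05 (SD over 6 libraries). At nt 101 to 120 every library had a wide peak, of 2 to 12 bins. Those values are means over the whole peak, not reads of the printed bin alone.

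SRP RNA is made from a pair of genes that are identical over their 297 nt, so a read from either one fits both equally well. The aligner kept at most 10 positions per read, and bins of Rn7s1 occurred up to 139 times in the genome, so a read need not have been listed at both. Rn7s1 (ENSMUSG00000092665, chr12:70260282-70260578, plus strand) held 112, 106, 99 and 118 reads in peaks in the 4 ASC libraries, in the same order, and 120 and 69 in C2C12. Rn7s2 (ENSMUSG00000092773, chr12:70462172-70462468, minus strand) held 117, 83, 89 and 92, and 98 and 40. The values of both overlapped between cell types, also without ASC B2 T2, and C2C12 replicate 2 was the lowest library for both. The peaks of these genes differ although the RNA is the same. The 20-nt grid of the caller cuts the 2 genes at different positions, and its part in the difference was not tested. The 5′ end of Rn7s1 had 20.03 ± 5.52 reads per bin (SD over 6 libraries), the highest mean among bins of functional genes found in every library, and nt 120 to 139 had 16.1 ± 4.72.

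RNase MRP RNA gave peaks on sequence found once in the genome. Rmrp (ENSMUSG00000088088, chr4:43505660-43505930, minus strand, 271 nt, inside the protein-coding gene Ccdc107 on the opposite strand) held 86 and 109 reads in ASC B1, 76 and 95 in ASC B2, and 87 and 84 in C2C12. In reads the libraries of both cell types overlapped, also without ASC B2 T2. As a share of the reads in misc_RNA peaks they did not, at 6.15% to 6.52% in ASC and 4.46% in both C2C12 replicates. Peaks covered 140 to 220 nt. The bin at nt 11 to 30 had 13.3 ± 3.01 reads and the bin at nt 231 to 250 had 9.83 ± 2.42 (SD over 6 libraries).

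RNase P RNA had its highest values in ASC B1. Rpph1 (ENSMUSG00000092837, chr14:51427124-51427442, minus strand, 319 nt) held 86 and 125 reads in ASC B1 T1 and T2, 58 and 40 in ASC B2 T1 and T2, and 36 and 43 in C2C12. Both libraries of ASC B1 lay above all others, and ASC B2 T2 lay between the C2C12 replicates. Without it, all ASC values lay above those of C2C12. As a share of the reads in misc_RNA peaks the cell types did not overlap, also with ASC B2 T2. The shares were 2.75% to 7.06% in ASC and 1.85% and 2.28% in C2C12. The bins of Rpph1 at nt 23 to 42 and nt 63 to 82 had peaks in all 6 libraries, with 9.50 ± 1.38 and 8.43 ± 2.66 reads.

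**Figure D2:**
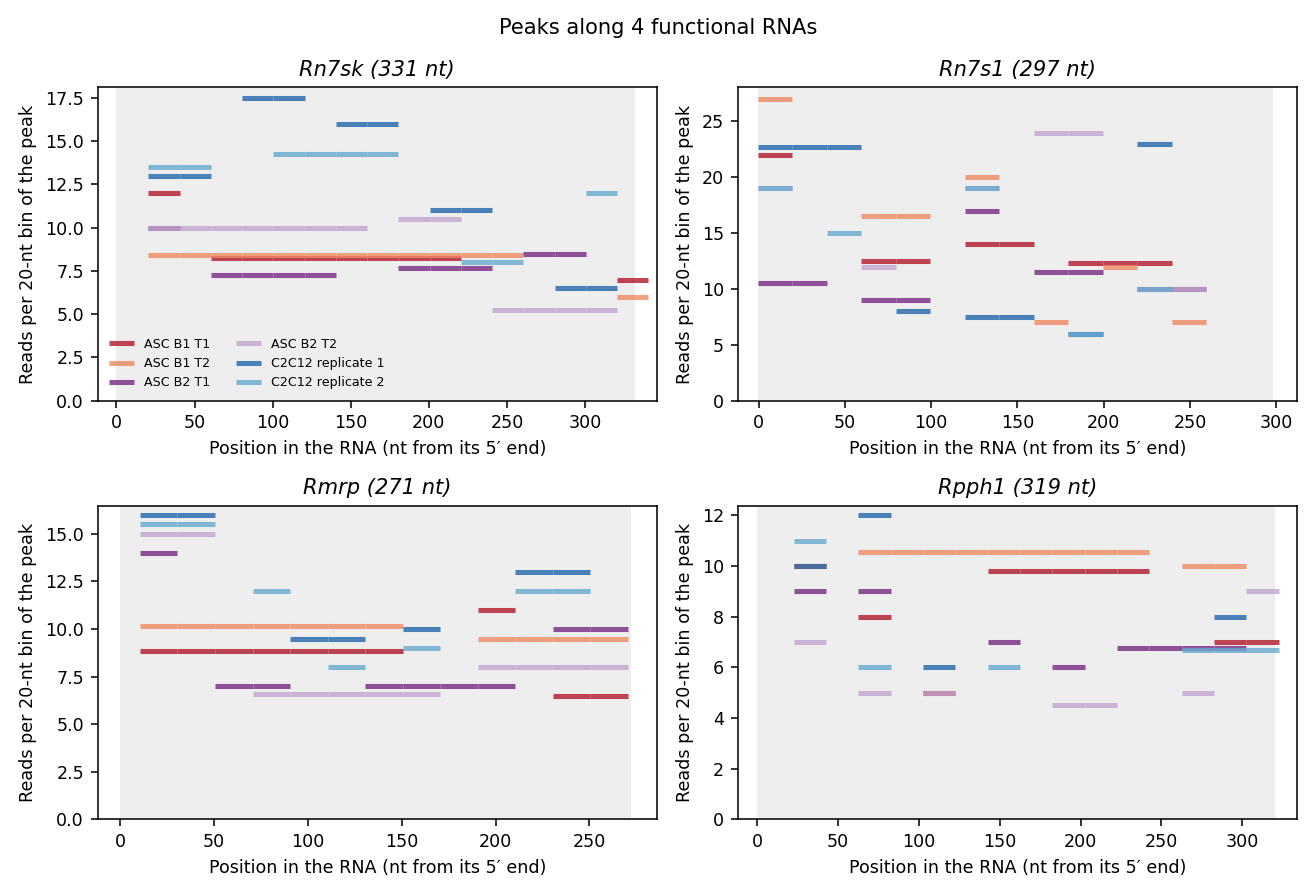
Reads per 20-nt bin of the peak (y axis) along Rn7sk, Rn7s1, Rmrp and Rpph1 (x axis, nt from the 5′ end, grey area the annotated RNA), with each peak drawn bin by bin at its listed value and a colour for each of the 6 libraries. On Rn7s1 the bin at the 5′ end had peaks in all libraries, with a mean of 20.03 reads, and on Rmrp the bin at nt 11 to 30 had a mean of 13.3.

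Y RNAs and vault RNA had few and narrow peaks. Rny3 (ENSMUSG00000064945, chr6:47731623-47731724, plus strand, 102 nt) held 17, 20, 19 and 16 reads in ASC and 29 and 19 in C2C12, and its bin at nt 59 to 78 had peaks in all 6 libraries. A bin at its 5′ end had peaks in C2C12 alone, with 14 and 10 reads. Rny1 (ENSMUSG00000065701, chr6:47738068-47738179, minus strand, 112 nt) held 5 to 17 reads in ASC and 9 and 28 in C2C12, with no bin shared by all libraries. Vaultrc5 (ENSMUSG00000065145, chromosome 18, 143 nt) held 6, 25, 8 and 16 reads in ASC and 48 and 34 in C2C12. Its C2C12 values lay above those of ASC as reads and as a share of the reads in misc_RNA peaks (0.440% to 1.41% against 2.46% and 1.81%, exact permutation p = 0.333).

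More peaks were listed on copies than on functional genes. A read was placed at up to 10 positions, so the same reads can be counted at more than 1 gene. At nt 101 to 120, Rn7sk and its copy ENSMUSG00000065824 had equal values of 8.25 in ASC B1 T1 and 17.5 and 14.25 in C2C12. In the other ASC libraries they had 8.42, 7.25 and 10 against 7.67, 7.5 and 9. All of these are means over wide peaks. How many reads were counted more than once was not tested. Of the 78 genes with a peak, 33 had one in all 6 libraries, 18 of them from the 7SK family and 9 related to SRP RNA. The 10 genes with most reads held 52.3% of the reads in misc_RNA peaks, and 5 of the 10 were functional genes. Among them was a 7SK copy, ENSMUSG00000065911 (chr15:93064794-93065131, plus strand), with 76, 100, 89 and 97 reads in ASC and 127 and 140 in C2C12. Another, ENSMUSG00000064694 (chr5:140320884-140321204, plus strand), held the highest single value of all misc_RNA peaks, 54 reads per bin in C2C12 replicate 1. That was a peak of 1 bin. In replicate 2 the bin lay in a peak of 2 bins with a mean of 17.5 reads per bin. Of the ASC libraries only B1 T2 had a peak there, of 3 bins with a mean of 12.3. Means of wide peaks cannot be set against the value of a single bin. As a share of the reads in misc_RNA peaks this copy overlapped between cell types, at 3.23% to 5.14% in ASC and 5.28% and 4.62% in C2C12. In ENSMUSG00000065254 (chr7:110420064-110420384, plus strand) they did not overlap, at 1.16% to 2.61% (up to 2.15% without B2 T2) against 3.79% and 4.36%.

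**Figure D3:**
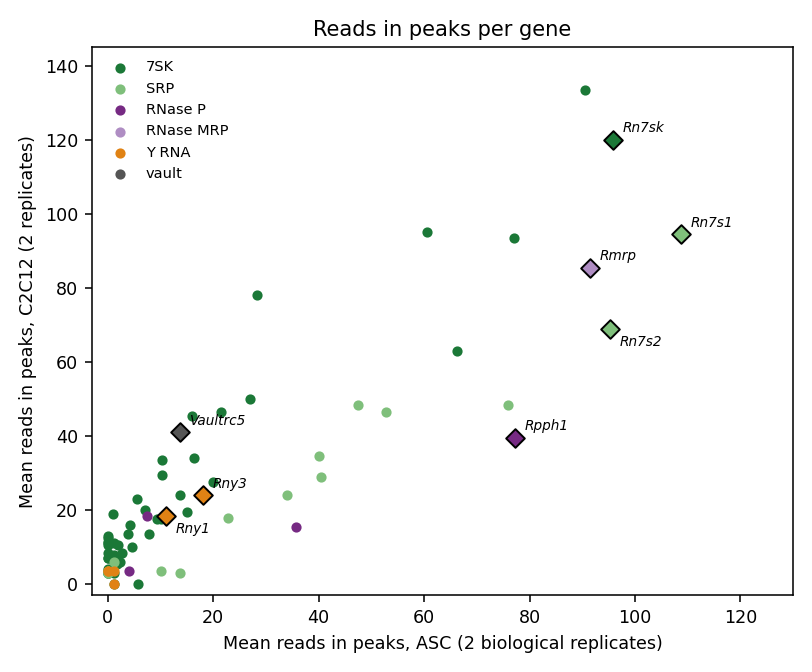
Mean reads in peaks of each misc_RNA gene with a peak, in ASC (x axis, mean of 2 biological replicates) and C2C12 (y axis, mean of 2 replicates), coloured by family, with diamonds for functional genes. Several 7SK copies lie high on the C2C12 axis, while Rpph1 lies to the ASC side with 86, 125, 58 and 40 reads in ASC and 36 and 43 in C2C12.

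Some copies differ from Rn7sk inside the peak, which shows which sequence the listed bin holds. In the pairs below, the bin of the copy is followed by the best matching stretch of Rn7sk, 5′ to 3′ on the RNA strand, with the bases that differ in capitals. All 4 bins had peaks in all 6 libraries.
ENSMUSG00000064694, chr5:140320881-140320900, plus strand: cCAggatgtgagggcgatct
Rn7sk at its 5′ end: cTCggatgtgagggcgatct
ENSMUSG00000088368, chr2:23678701-23678720, plus strand: cTTCggtataGgagtagctg
Rn7sk from nt 186: cAAGggtataCgagtagctg
ENSMUSG00000065254, chr7:110420161-110420180, plus strand: tcacTgctccatgtgcgtcc
Rn7sk from nt 99: tcacCgctccatgtgcgtcc
ENSMUSG00000065327, chr12:71031961-71031980, plus strand: ctggctaggcAggtgtcccc
Rn7sk from nt 71: ctggctaggcGggtgtcccc
The bins of the first 3 copies occurred once in the genome. Their mean values were 21.2 ± 9.44, 18.2 ± 7.83 and 18 ± 9.38 reads per bin (SD over 6 libraries). The authors' aligner allowed up to 2 mismatches per read and up to 10 positions per read. A read of Rn7sk could therefore also be placed at a copy with 1 or 2 differences if no position fitted it better, and which reads made these peaks was not tested.

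Most copy bins with peaks were identical or nearly so to the functional RNA. Of 127 distinct bins on 7SK copies, 55 matched Rn7sk without a mismatch, 46 with 1 or 2, 16 with 3 to 5 and 10 with over 5. Of 49 bins on SRP copies, the counts were 22, 17, 3 and 7. Of 11 bins on RNase P copies, 2 were identical to Rpph1 and 8 differed by 1 or 2 bases. Copy bins without a peak were not classed in this way, so these counts do not show how bins with peaks differ from them.

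7SK copies with a peak were closer to Rn7sk than those without. All 48 copies with a peak aligned to Rn7sk, with a median identity of 84.7% over a median of 230.5 nt, and 37 aligned over at least 150 nt. Of the 282 copies without a peak, 163 aligned, with a median identity of 78.5% over 113 nt. At least 95% identity over at least 150 nt was found in 5 copies with a peak and in 0 of those without. The same order held for SRP copies, with 89.7% over 201 nt in the 13 with a peak and 85.5% over 60 nt in the 52 without. A read of a functional RNA could also be placed at copies with the same or nearly the same sequence. Close copies can therefore be listed with a peak without being bound, so this order does not show which copies were bound. The part of read placement in this order was not tested. An alignment of some 60 nt is a weak basis for the family name, so the 67 genes are called related to SRP RNA.

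**Figure D4:**
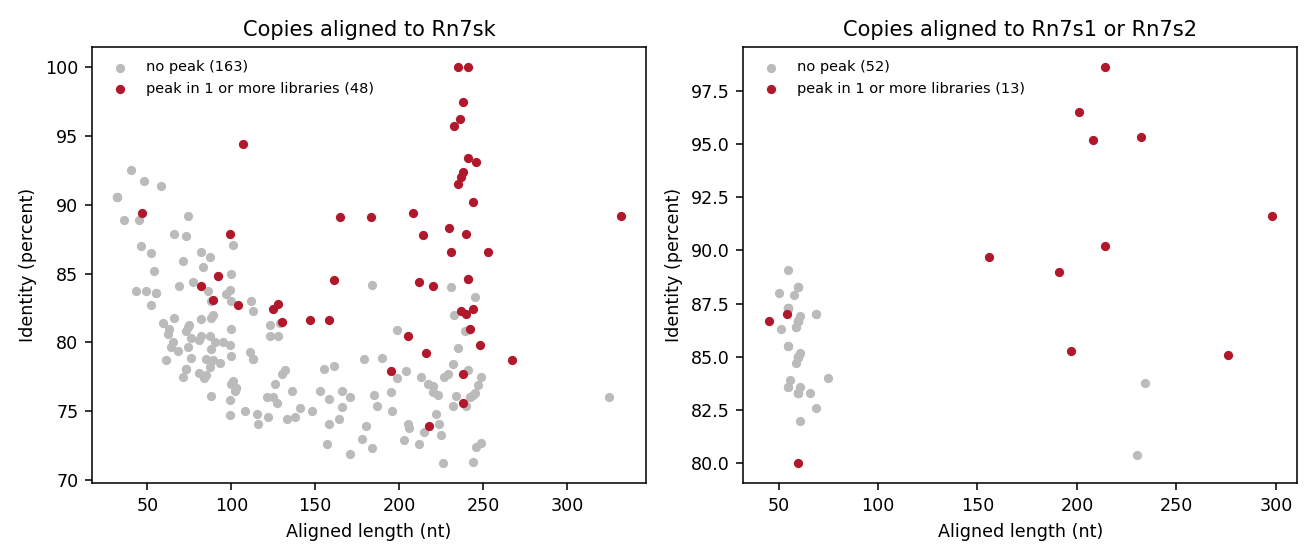
Identity (y axis, percent) and length (x axis, nt) of the best alignment of each 7SK copy to Rn7sk (left) and of each SRP copy to Rn7s1 or Rn7s2 (right), with copies that had a peak in 1 or more libraries in red and the others in grey. The 48 red 7SK copies had a median of 230.5 nt aligned, and the 163 grey ones 113 nt.

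Of the 78 genes, 55 had peaks in both cell types. C2C12 alone had peaks on 20 genes, 13 of them 7SK copies, with 9 in both replicates and 11 in 1 replicate. These 20 are 25.6% of the misc_RNA genes with a peak, where the share over all genes with a peak was 47%. ASC alone had peaks on 3 genes (3.85%, against 13.6% over all genes). Without ASC B2 T2 the counts were 25 in C2C12 alone (32.1%, against 63.0% over all genes) and 3 in ASC alone (3.85%, against 8.80%). Of the 3, 1 had peaks in all 4 ASC libraries, a gene annotated as 7SK (ENSMUSG00000088220, chr19:41819294-41819543, plus strand) with 6, 6, 5 and 6 reads. Its bin differed from Rn7sk at 6 bases at the best match and occurred 288 times in the genome. These values lie at or just above the lowest number of reads listed, and a peak of 5 reads could not be listed in C2C12, where the lowest was 6. The 9 genes found in both C2C12 replicates and in no ASC library were also low, at 6 to 20 reads per replicate, and 8 of them were 7SK copies. Over all genes with a peak, 3625 of 13447 were found in both C2C12 replicates and in no ASC library.

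Peaks on misc_RNA genes were found again between libraries more often than peaks in general. Of the 78 such peaks of ASC B1 T1, 75 overlapped a peak of T2 (96.2%, exact 95% interval 89.2% to 99.2%), where the share over all peaks was 72.5%. From T2 to T1 it was 73 of 101 (72.3%), against 54.5%. In ASC B2, 71 of 78 from T1 were in T2 (91.0%), against 64.4% over all peaks, and 68 of 98 from T2 were in T1 (69.4%), against 26.2%. Of the 75 shared peaks of B1, 62 were in B2 (82.7%, 72.2% to 90.4%), against 41.5%. In the other direction 66 of 71 were found (93.0%), against 48.4%. In C2C12, 107 of 126 peaks of replicate 1 were in replicate 2 (84.9%, 77.5% to 90.7%), against 48%, and 105 of 129 were found from replicate 2 to replicate 1 (81.4%), against 40.4%. These intervals cover counting error over peaks, and peaks on copies of one sequence can share reads.

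Height and width moved with these shares. Misc_RNA peaks had a median of 7 to 10 reads per bin and all peaks 4 to 7. Among B1 shared peaks of under 10 reads, 78.0% of those on misc_RNA genes were in B2 against 35.4% of all. Among those of 10 or more, the shares were 92.0% and 90.8%, and among single-bin peaks 72.7% and 38.6%. At 10 or more reads the gap was wider in other comparisons. From B2 to B1 the shares were 96.3% on misc_RNA genes and 77.9% of all. In C2C12 they were 94.4% and 82.7% from replicate 1 to replicate 2, and 95.2% and 79.9% from replicate 2 to replicate 1. The gap also depended on the caller's threshold: with p at most 0.00001 in every library, 17 of 34 misc_RNA peaks of B1 were in B2 (50.0%), where the share over all such peaks was 53.3%. Without B2 T2 the main share was 84.0%, against 46.3% over all peaks, and B1 T2 alone, taken without B1 T1, gave 64.4%, against 27.6%. Shared peaks of B1 on snRNA genes were found again in B2 at 86.6% and those on snoRNA genes at 72.7%. From B2 to B1 they were found at 50.6% and 21.1%, and from C2C12 replicate 1 to replicate 2 at 90.4% and 77.2%. Misc_RNA peaks stood at 93.0% and 84.9% in these last comparisons.

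Most misc_RNA peaks shared by the ASC replicates were also in C2C12. Of 62, 49 were found among the peaks shared by the C2C12 replicates (79.0%, 66.8% to 88.3%), where the share over all ASC shared peaks was 61.4%. Among peaks of 10 or more reads the order turned, with 78.3% of misc_RNA peaks and 90.3% of all. When only peaks of at least 6 reads per bin were kept in every library, the shares were 85.4% and 87.2%. Without ASC B2 T2 they were 79.4% and 56.8%. The 13 that were not found were 5 of 28 on 7SK genes, 5 of 24 on genes related to SRP RNA, 2 of 6 on RNase P, 1 of 3 on RNase MRP and 0 of 1 on Y RNAs. They include the bin of Rmrp at nt 191 to 210 with 11 reads in ASC B1 T1 and a stretch of Rn7s1 at nt 60 to 99 with 12.5. In the other direction, 56 of 107 misc_RNA peaks shared by the C2C12 replicates were among the ASC shared peaks (52.3%), against 5.23% over all C2C12 shared peaks.

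**Figure D5:**
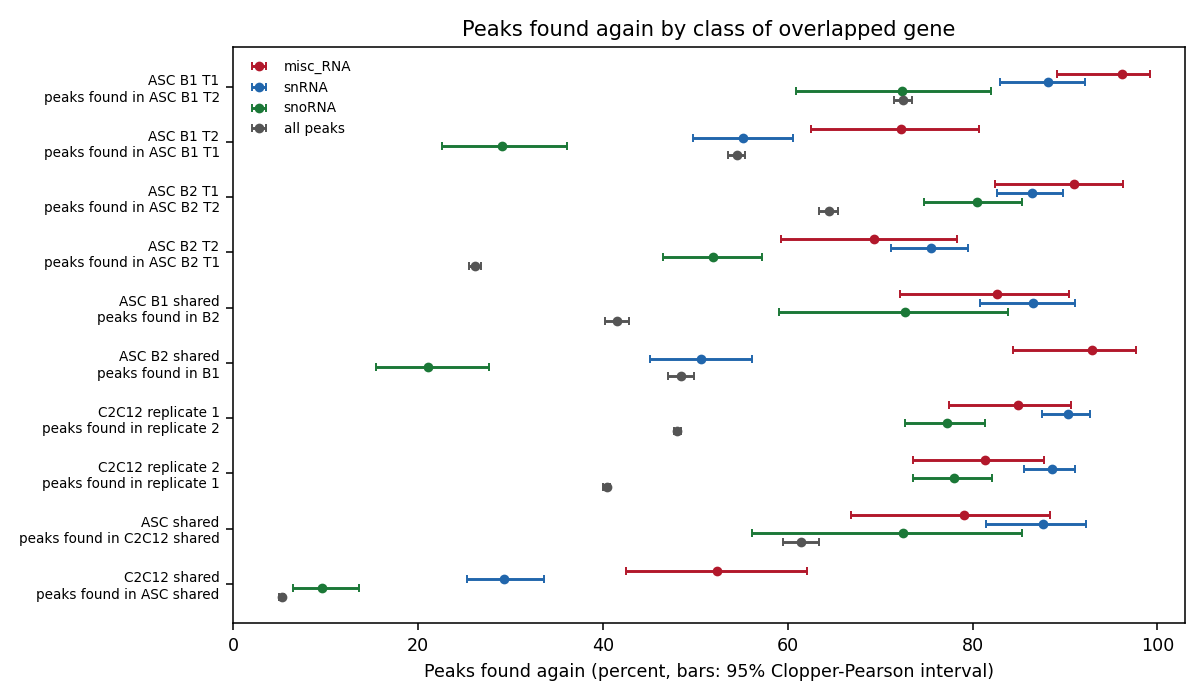
Percent of peaks found again in another library, replicate or cell type (x axis, with exact 95% intervals) for peaks on misc_RNA, snRNA and snoRNA genes and for all peaks. In the comparison of ASC B1 with B2, misc_RNA peaks lie at 82.7% and all peaks at 41.5%.

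Many misc_RNA peaks lay on repeated sequence. A 20-nt sequence that occurred over once in the genome was found in 341 of 610 peaks (55.9%, 51.9% to 59.9%), against 40.4% of all peaks with reference sequence. Wide peaks hold several bins and so more chances of a repeated one. Among the 434 single-bin peaks the share was 43.5% (38.8% to 48.4%), where that of all single-bin peaks was 39.2%. The libraries were not alike in this, with 46.8% against 28.3% in ASC B1 T1 and 41.3% against 44.0% in C2C12 replicate 2. Over 10 copies were found in 12.1% of misc_RNA peaks and 26.1% of all, and the values ranged from 15.4% against 15.8% in ASC B1 T1 to 13.95% against 31.1% in C2C12 replicate 2. Pooled over libraries, the median was 9 reads per bin both for peaks in 1 copy and for those in over 1. Within libraries, peaks in over 1 copy had the higher median in all but ASC B2 T1, with 8.33 against 8.5. It was 8.5 against 8 in ASC B1 T1, 10.5 against 9 in B1 T2 and 8 against 6 in B2 T2. In C2C12 it was 10.75 against 10 in replicate 1 and 10 against 9 in replicate 2.

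The share of misc_RNA peaks with the motif GGAC was near that of all peaks. GGAC, the commonest core of the sequence in which m6A is made, stood on the RNA strand within 20 nt of 80 of 434 single-bin misc_RNA peaks (18.4%, 14.9% to 22.4%), where the share over all single-bin peaks was 17%. On the other strand the shares were 32.3% and 26.3%. In the functional RNAs, GGAC begins at nt 147 and nt 171 of Rn7sk, at nt 155 of Rn7s1 and Rn7s2, at nt 39 and nt 78 of Rmrp and at nt 260 and nt 343 of Terc, which had no peak. The bins that hold these positions had peaks in 5 and 4 libraries in Rn7sk, in 2 in Rn7s1, in 3 in Rn7s2 and in 5 and 5 in Rmrp. Rpph1, Rny1, Rny3 and Vaultrc5 hold no GGAC, and they had peaks in all 6 libraries. A match is only a match of letters, and no measurement of m6A was analysed here.

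On the strand of the reads, the same genes had 13 peaks in all, 1 in each ASC library and 4 and 5 in C2C12, against 610 on the strand of the RNA. Runs of at least 10 G on the read strand lay within 20 nt of 12 of the 610 peaks (1.97%), where the share over all peaks was 3.53%. In the ASC libraries it was 1.98% to 3.06% of misc_RNA peaks against 8.44% to 13.4% of all, and in C2C12 0.794% and 1.55% against 1.18% and 1.03%.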

How the data were processed

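Cells were UV-crosslinked and YTHDC1-bound RNA was read by LACE-seq. The authors trimmed reads with Cutadapt 1.15, removed reads of pre-rRNA, aligned the rest to mm9 with Bowtie 1.2.3 (up to 2 mismatches, up to 10 positions per read) and called peaks per library with Piranha in 20-nt bins at p = 0.001. These settings are stated for ASCs. Removal of duplicate reads is not given in the sources used here. The signal deposited is a read count per 20-nt bin of the peak, not normalized, and the p-value is the authors' own from Piranha. Total depth is unknown from peak lists.

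Peaks were assigned to GENCODE vM1 genes on NCBIM37 (mm9). Functional genes were identified by sharing at least 4 of 8 protein-coding neighbours with the RefSeq gene (GRCm38, names only), with Rny1 and Rny3 told apart by length. Clone-named genes were given a family by blastn 2.17.0 (E at most 1e-05). The peak lists were analysed with Python 3.11.15, numpy 2.4.6, pandas 2.3.3, scipy 1.17.1, pysam 0.24.0, samtools 1.23.1 and matplotlib 3.10.9. Overlap, copy counts and intervals were tested on simulated data (9 of 9 checks gave the known answer).

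Technical replicates were averaged before exact two-sided permutation tests. Intervals are Clopper-Pearson at 95%. Genes named were functional RNAs, the gene of each family with most reads per bin in each cell type, up to 15 genes with peaks in all libraries and the 5 with most peak positions. Genes found in 1 cell type alone, and the largest by total reads, were named after their values were seen. The members and lists were chosen with earlier results of these data known.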

Additional observations from a re-analysis of the deposited data

Results flagged for a closer look

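The share of peaks on misc_RNA genes in ASC B2 T2 was 0.504%, while the other 3 ASC libraries held 0.939% to 0.984%, and this library lay apart from the rest by the gap to its nearest neighbour relative to the range of the group. Of 21 measures compared in this way over the 4 ASC libraries, it was 1 that passed, and chance alone passes about 1 group in 20. ASC B2 T2 also held 19448 peaks, against 7925 to 10759 in the other ASC libraries, and a lowest value of 4 reads per bin against 5. Its number of misc_RNA peaks, 98, lay within the range of the others (78 to 101).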

How the results depend on the processing

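No paired analysis was possible because the replicate numbers of ASC and C2C12 cells name separate cultures and no test across many features was run. Of 129 values under other settings, 118 counted as unchanged and 11 did not. Unchanged meant the same direction or a move by less than the error of the reported value. The number of misc_RNA peaks has no error and had to stay within a fixed factor. With p at most 0.0001, the share of ASC misc_RNA peaks of B1 found in B2 was 58.3% (41.6% over all peaks), that of C2C12 replicate 1 found in replicate 2 was 68.9% (45.4%), and that of ASC shared peaks found in C2C12 was 60.0% (51.3%). With p at most 0.00001, these were 50.0% (53.3%), 60.9% (44.5%) and 52.9% (51.3%), GGAC was within 20 nt of 22.3% of peaks, and the number of misc_RNA peaks was 302. Fewer peaks were tested under these settings. Leaving out 1 library in turn, the share found in B2 ranged from 64.4% to 92.0% and the share found in C2C12 from 75.4% to 90.3%, with 90.3% against C2C12 replicate 2 alone and 82.3% against replicate 1 alone. The difference in the share of peaks, ASC minus C2C12, ranged from 0.377 percentage points, with technical replicates merged, to 1.46, with p at most 0.00001, and that in the share of reads from 1.45 to 2.66, all above 0 and all at an exact permutation p = 0.333. The share of 7SK peaks stayed within 45.9% to 50.6% as a mean over libraries. Peaks of 4 to 6 reads, the lowest listed, cannot be compared between libraries with unlike lowest values, and the depth of each library is unknown.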
